A study of Homo sapiens with 16 samples.

Results

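Natural killer (NK) cells of transplanted mouse mammary tumors are described here, 1615 cells among 48824. A cell was taken as an NK cell where the cluster annotation deposited with the counts gave it the name NK.cells, and no other measurement entered the choice. In the long-term experiment, 1 cell barcode of 16 bases could stand in several sequenced pools, and the copy with the most unique molecular identifiers (UMIs, counted RNA molecules) was kept, which left out 19 of 300 NK-named entries. The kept NK cells comprised 281 of 25723 cells in the long-term experiment, 1193 of 15094 in the short-term LPA1-T22 (T22) experiment and 141 of 8007 in the short-term LPA1-T127 (T127) experiment. The T cells they are set against comprised 5452 cells of the clusters named CD4_Tcm-TCF7, CD4_Treg-FOXP3, CD8_Tn-CCR7, Tgd and Tprf-MKI67, of which 1558 were long-term, 3505 T22 and 389 T127. Their make-up differed, with CD4_Tcm-TCF7 at 1136, 2438 and 204 cells and CD4_Treg-FOXP3 at 113, 5 and 149 cells.

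The study asked how 2 syngeneic tumors, T22, which is sensitive to the PARP inhibitor olaparib, and T127, which is resistant, differ in their immune cells. Tumor pieces grew in the mammary fat pads of female FVB mice of 6 weeks, a strain with an intact immune system, and the mice received vehicle or olaparib at 50 mg/kg by mouth each day. The T22 and T127 short-term pools held tumors treated for 4 and 8 days, and the long-term pools held tumors treated for 20 days from mice that carried T22 alone, T127 alone or both on opposite sides. Pools mixed marked tumors of vehicle and olaparib mice, and the cells were not linked to a tumor here, so that no treatment effect on NK cells could be read and each experiment counts as 1 sample. A pool is thus no replicate of a condition, and ranges over pools show the spread between pools only.

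NK cells are innate lymphocytes that kill stressed or transformed cells without a rearranged antigen receptor. Germline-encoded activating receptors signal through adaptor proteins with tyrosine motifs, and inhibitory receptors that recognize MHC class I molecules hold this signal back. Killing proceeds through perforin, which opens the target membrane, and granzymes, serine proteases that enter the target, while interferon gamma and chemokines secreted by NK cells act on dendritic cells, T cells and macrophages.

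Levels below are UMIs of a gene per 1000000 UMIs (CPM), summed over the cells of a class. Intervals are exact 95% intervals that cover counting error only, and no p-values are given, because cells of 1 sample are not replicates and the clusters were defined on the same genes. NK cells were sequenced to a median of 5248 UMIs in the long-term, 6543 in the T22 and 6064 in the T127 experiment, against 3285.5, 7077 and 3145 UMIs in T cells. A long-term pool held 26 to 41 NK cells, a T22 pool 269 to 335 and a T127 pool 30 to 44. Of the kept long-term NK cells, 32 had a barcode that also stood in another pool, and 21 of the 37 shallower copies of these cells carried the name CD4_Tcm-TCF7 at a median of 1467 UMIs. Long-term pool 6 stood apart from the other 7 long-term pools in granzyme, Spp1 and T cell receptor transcripts, and values without it are given where they matter. The short-term T22 and T127 experiments had the same treatment times, and between them tumor model and capture cannot be told apart. The long-term experiment holds both tumors and also differs in treatment time.

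NK cells made up a larger share of the T22 samples than of the other samples. In the 4 short-term T22 pools they were 7.92%, 7.88%, 6.97% and 8.86% of all cells, and 7.90% in all (95% interval 7.48 to 8.35). In the 4 T127 pools they were 1.51%, 1.62%, 2.03% and 1.88%, and 1.76% in all (95% interval 1.48 to 2.07). The 8 long-term pools ranged from 0.822% to 1.20% with a median of 1.13%, and gave 1.09% in all (95% interval 0.969 to 1.23). Every T22 pool lay above every T127 pool, and every T127 pool lay above every long-term pool. Among immune cells the order was kept, at 9.44%, 4.85% and 1.58%. Among NK and T cells together, NK cells were 25.4% in T22, 26.6% in T127 and 15.3% in the long-term experiment, and the T22 range over pools (22.8% to 27.8%) lay within the T127 range (22.4% to 31.4%). The long-term pools ranged from 8.67% to 24.2% and overlapped both ranges.

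**Figure D1:**
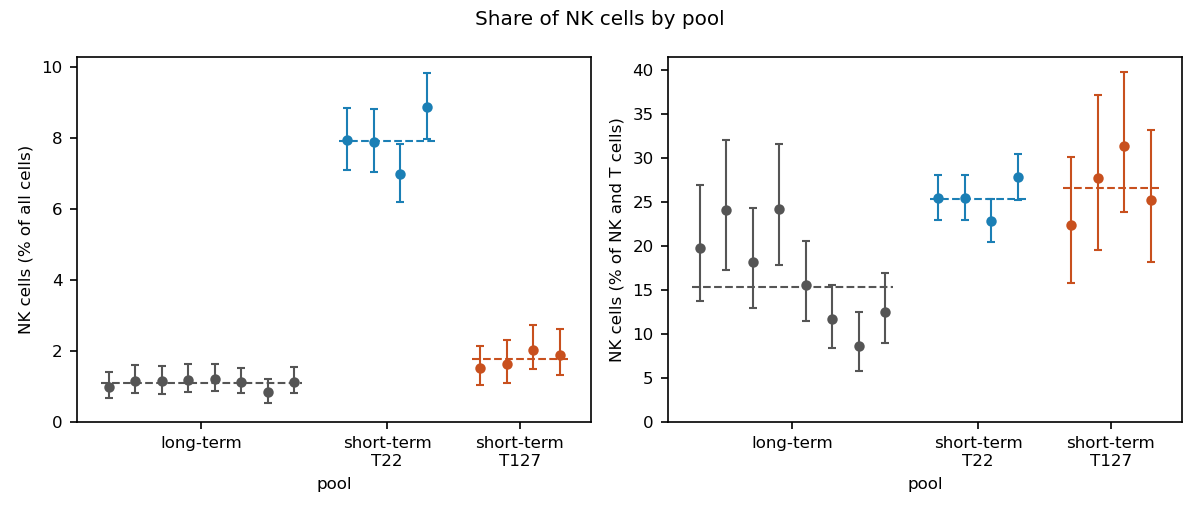
Share of NK cells among all cells (left) and among NK and T cells (right), in percent, for each of the 16 pools, with exact 95% intervals and a dashed line for the experiment. The T22 pools stand at 6.97% to 8.86% of all cells, while the T22 and T127 ranges overlap among NK and T cells.

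The 4 genes that mark the class were high in the cells that carried its name. By the study's methods the name rested on Cd45, Ncr1 and Nkg7. High Ncr1 and Nkg7 were thus set by the naming, and their values here only describe the class. Ncr1 also counts in the list of activating receptors below, and Nkg7 in that of granule genes. Ncr1, which encodes the activating receptor NKp46, stood at 942 CPM in long-term NK cells, 883 in T22 and 1048 in T127. By pool, Ncr1 was 906, 871, 849 and 899 CPM in T22, 990.4, 1097, 1233 and 879.9 in T127, and 738 to 1189 (median 960.1) in the long-term pools. The NK pools of each experiment lay above all T cell pools, in which Ncr1 stood at 183, 77.8 and 196 CPM. The ratio of NK to T cells was 5.15-fold (95% interval 4.78 to 5.54) in the long-term experiment, 11.4-fold (95% interval 10.8 to 11.9) in T22 and 5.36-fold (95% interval 4.70 to 6.13) in T127. Nkg7, a granule membrane protein, Gzma, granzyme A, and Klrb1c, the NK1.1 receptor, also lay above T cells in every pool of each experiment, where 1.17%, 17% and 5.41% of all genes did. After thinning each cell to 2000 UMIs, 73.9% (95% interval 68.4 to 79.0) of long-term, 68.3% (95% interval 65.5 to 70.9) of T22 and 80.7% (95% interval 73.2 to 86.9) of T127 NK cells had an Ncr1 UMI. The same share in B cells, which should lack the gene, was 0.581%, 3.03% and 0% (0 of 25 cells, up to 12.0%), at median depths of 2082, 2862.5 and 2084.5 UMIs. T cells held an Ncr1 UMI in 11.3%, 7.87% and 10.8% of cells. Malignant cells held one in 0.0437%, 0.358% and 0% (0 of 4878 cells, up to 0.0615%), at median depths of 18461.5, 24802 and 33836 UMIs before thinning. The T cell clusters thus carried Ncr1 above the level of malignant cells.

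Of the 15 activating receptors measured, 11 were at least 2-fold higher in NK than in T cells (on the scale of log2 of CPM plus 1) in the long-term experiment, 10 in T22 and 11 in T127. Of all genes tested, 3.72%, 3.99% and 4.08% were. The median log2 ratio of the list was 1.73, 2.18 and 1.55, against -0.07, 0.02 and -0.07 over all genes. Klrk1, the NKG2D receptor for stress-induced ligands, stood at 380.3, 397 and 444 CPM in long-term, T22 and T127 NK cells. Klre1, a lectin-like receptor of the NK gene complex, stood at 368, 353 and 389.7 CPM, and Klrb1f at 196, 223 and 183. Klrk1, Klre1 and Klrb1f varied little between the experiments, and their pool ranges in NK cells overlapped between T127 and T22. Klrb1c, also of this list, stood at 106 CPM in long-term, 163 in T22 and 91.9 in T127 NK cells. Cd226, the receptor DNAM-1, and Slamf6, a receptor shared with T cells, were at least 2-fold lower in NK than in T cells in the long-term experiment, Cd226 at 59.2 against 139 CPM and Slamf6 at 11.7 against 31.5. The Cd226 T127 pools of NK cells (56.3, 37.5, 83.7 and 66.6 CPM) lay below the T22 pools (152, 179, 172 and 151 CPM), as held for 13.3% of all genes.

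In a list of 18 receptors drawn up as inhibitory, 13, 12 and 9 were at least 2-fold higher in NK cells in the long-term, T22 and T127 experiments, and 3, 2 and 5 were at least 2-fold lower. Of all genes, 3.72%, 3.99% and 4.08% were higher to this extent and 9.36%, 4.6% and 9.29% lower. The median log2 ratio of the list was 1.85, 1.98 and 0.75, against -0.07, 0.02 and -0.07 over all genes. The list also holds Klra4 and Klra8, which encode Ly49D and Ly49H, activating receptors that signal through DAP12. Of its 7 Ly49 genes, 6 (all but Klra5) were among the higher genes in each experiment, with Klra4 at 310.5, 368 and 338 CPM and Klrd1, the CD94 chain that pairs with NKG2 receptors, at 708, 654 and 836 CPM. Ly49 genes are near-identical copies and the reads of FVB mice were aligned to the C57BL/6 reference genome, so that a level can include reads of a related gene. Klra7 differed between the tumor models, at 149, 127.1, 121 and 86.9 CPM in the T22 pools and 314, 463, 479.6 and 294 in the T127 pools, which did not overlap. Pools lay apart in this direction for 8.04% of all genes and in the other, with T22 higher, for 13.3%. The Klra7 T127 level was 3.22-fold (95% interval 2.86 to 3.61) the T22 level. Lag3, a checkpoint receptor that binds MHC class II, stood at 8.17, 7.81, 9.04 and 8.30 CPM in the T22 pools and 84.5, 129, 118 and 147 in the T127 pools, a ratio of 14.7-fold (95% interval 10.95 to 19.8). T127 T cells carried Lag3 at 152 CPM, against 2.31 in T22 T cells. The T127 T cells held 149 CD4_Treg-FOXP3 cells of 389 and the T22 T cells 5 of 3505, and in CD4_Tcm-TCF7 cells alone Lag3 was 76.8 and 2.19 CPM. Havcr2, the receptor TIM-3, stood at 58.1 CPM in long-term NK cells (pools 0 to 106), 1.62 in T22 and 8.99 in T127. Pdcd1, which encodes PD-1, and Ctla4 were lower in NK than in T cells in all 3 experiments, Pdcd1 at 36.3, 17.6 and 37.0 CPM against 118, 95.3 and 229.8. Klrg1, a receptor of mature NK cells, was higher in NK than in T cells in T22 (30.2 against 3.803 CPM) and lower in T127 (5.00 against 59.7 CPM), with no overlap of the pools in either. Of all genes, 17% lay above T cells by pools in T22 and 10.2% below in T127.

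The adaptors split NK from T cells by gene. Tyrobp, the adaptor DAP12 of Ly49 and NKG2C receptors, was 5.29-fold (95% interval 5.09 to 5.50), 13.1-fold (95% interval 12.6 to 13.5) and 4.50-fold (95% interval 4.20 to 4.83) higher in NK cells. Fcer1g, the adaptor of NKp46 and CD16, was 5.24-fold, 8.15-fold and 3.56-fold higher. Hcst, the adaptor DAP10 of NKG2D, was at the T cell level in the long-term (1.01-fold) and T22 (1.02-fold) experiments. Syk, a kinase that binds phosphorylated DAP12 and Fc receptor chains, was higher in NK cells (2.78-fold, 9.27-fold and 2.07-fold), whereas Zap70, its relative of T cell receptor signaling, was lower (0.672-fold, 0.616-fold and 0.680-fold). Lat, the scaffold of T cell receptor signaling, stood at 88.0, 80.3 and 40.0 CPM in NK cells against 403, 319 and 199.7 in T cells, with every NK pool below every T cell pool, as held for 2.52%, 14.3% and 10.2% of all genes. Of the 14 genes of this list, 5 of 13 that passed the count filter were at least 2-fold higher in the long-term experiment, 6 of 14 in T22 and 4 of 12 in T127, where 3.72%, 3.99% and 4.08% of all genes were. At least 2-fold lower were 2, 1 and 1 of the list, against 9.36%, 4.6% and 9.29% of all genes, and its median log2 ratios were 0.24, 0.55 and 0.37. Between the experiments, the Tyrobp level of NK cells was higher in T127 (3661, 3166, 2816 and 3467 CPM by pool) than in T22 (1899, 1814, 1899 and 1991). Fcer1g went the other way (737, 692, 628 and 992 against 1226, 1240.4, 1248 and 1234). Of the 14 genes, 1 was at least 2-fold higher in T22 than in T127 NK cells and 0 were lower, where 10.3% and 3.69% of all genes were.

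Eomes, Tbx21, Runx3 and Irf8 were higher in NK than in T cells, and Bcl11b and Rora were lower. Eomes, a T-box factor of mature NK cells, stood at 205, 376 and 301 CPM in NK cells against 51.3, 44.1 and 89.2 in T cells. Tbx21, which encodes T-bet, stood at 48.0, 111 and 145 CPM, and Runx3 was 2.06-fold, 1.85-fold and 1.91-fold the T cell level. Irf8, a factor that also serves dendritic and NK cell function, was 511, 517, 545 and 589 CPM in the T22 pools and 1539.5, 1831, 1587 and 1816 in the T127 pools, a ratio of 3.14-fold (95% interval 2.97 to 3.32). T cell levels differed in the same direction (57.5 to 518 CPM). Bcl11b, a factor of T cell commitment, stood at 20.8, 59.5 and 5.00 CPM in NK cells against 272, 313 and 281 in T cells. NK cells with Ncr1 and no Cd3 UMI held 0.967, 14.1 and 2.25 CPM of it. Rora, a factor of innate helper cells, was 0.140-fold, 0.308-fold and 0.322-fold the T cell level. Over the list of 24 lineage factors, 4 of 22 that passed the filter were at least 2-fold higher and 9 lower in the long-term experiment, 4 and 5 of 24 in T22, and 3 and 9 of 21 in T127. Of all genes, 3.72% and 9.36%, 3.99% and 4.6%, and 4.08% and 9.29% were higher and lower to this extent. The median log2 ratios were -0.63, 0.12 and -0.70.

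T cell receptor transcripts were low in NK cells but not absent, and their distribution over cells was uneven. Trac, the alpha chain constant region, stood at 96.0, 60.8 and 29.98 CPM in long-term, T22 and T127 NK cells against 706, 365 and 813 in T cells, and Cd3e at 97.6, 131 and 17.0 against 842, 939 and 534. Long-term pool 6 was the highest of the 8 pools for both, at 285 CPM of Trac and 313 of Cd3e, and without it the long-term levels were 72.6 and 70.8 CPM. Without T127 pool 1 the T127 level of Cd3e fell from 17.0 to 3.81 CPM. Trbc1, the first beta chain constant region, was no lower in NK than in T cells, at 1311, 1126 and 1632 CPM (1.20-fold, 1.21-fold and 1.30-fold), whereas Trbc2 was 0.253-fold, 0.364-fold and 0.348-fold. Unrearranged beta chain transcripts are known in NK cells, and the 3′ counts used here do not separate them from rearranged ones. Of the 14 genes of the T cell receptor complex found among the 16 listed, 11, 11 and 12 were at least 2-fold lower in NK cells in the long-term, T22 and T127 experiments, where 9.36%, 4.6% and 9.29% of all genes were, with median log2 ratios of -2.20, -2.49 and -4.37.

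Most NK-named cells had a UMI of Ncr1, some of them together with a Cd3 UMI, and a minority had Cd3 UMIs alone. At full depth, 144 of 281 long-term NK cells had a UMI of Ncr1 and none of Cd3d, Cd3e or Cd3g, 96 had both, 39 (13.9%) had a Cd3 UMI alone and 2 had neither. In T22 the counts were 692, 313, 150 (12.6%) and 38 of 1193 cells, and in T127 they were 66, 70, 4 (2.84%) and 1 of 141. These shares move with depth, and after thinning to 2000 UMIs cells with both were 23.9% in the long-term, 12.3% in the T22 and 33.6% in the T127 experiment. Thinned cells with Cd3 alone were 16.4%, 14.7% and 10.7%, and those with neither 9.64%, 17.0% and 8.57%. Of the thinned NK cells, 36.8%, 23.7% and 41.4% had a Cd3g UMI. Malignant cells gave 0.539%, 0.819% and 0.0615%, and B cells 0.581%, 0% (0 of 33 cells, up to 9.09%) and 0% (0 of 25 cells, up to 12.0%), so that the Cd3g shares of NK cells lay above both. The long-term cells with Cd3 alone carried T cell transcripts, with Trac at 789 CPM, Cd8b1, a coreceptor of cytotoxic T cells, at 397 and Il7r at 618, against 9.67, 0 and 48.4 CPM in the cells with Ncr1 alone. They held Tyrobp at 364 and Klre1 at 38.6 CPM, against 3903 and 371 in the cells with Ncr1 alone. The cells with both Ncr1 and Cd3 lay closer to those with Ncr1 alone, with Trac at 39.9, Il7r at 23.04, Tyrobp at 3377 and Klre1 at 447 CPM, and their Cd3 UMIs were mostly Cd3g (1034 CPM, against 63.0 of Cd3e). The split was repeated in T22, where cells with Cd3 alone held Trac at 341 and Tyrobp at 225 CPM and cells with Ncr1 alone held 11.001 and 2306. In the cells with an Ncr1 UMI, chosen after seeing the data as an alternative, the long-term Trac level was 21.4 CPM and the Cd3e level 24.3, while Trbc1 stayed at 1334.

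**Figure D2:**
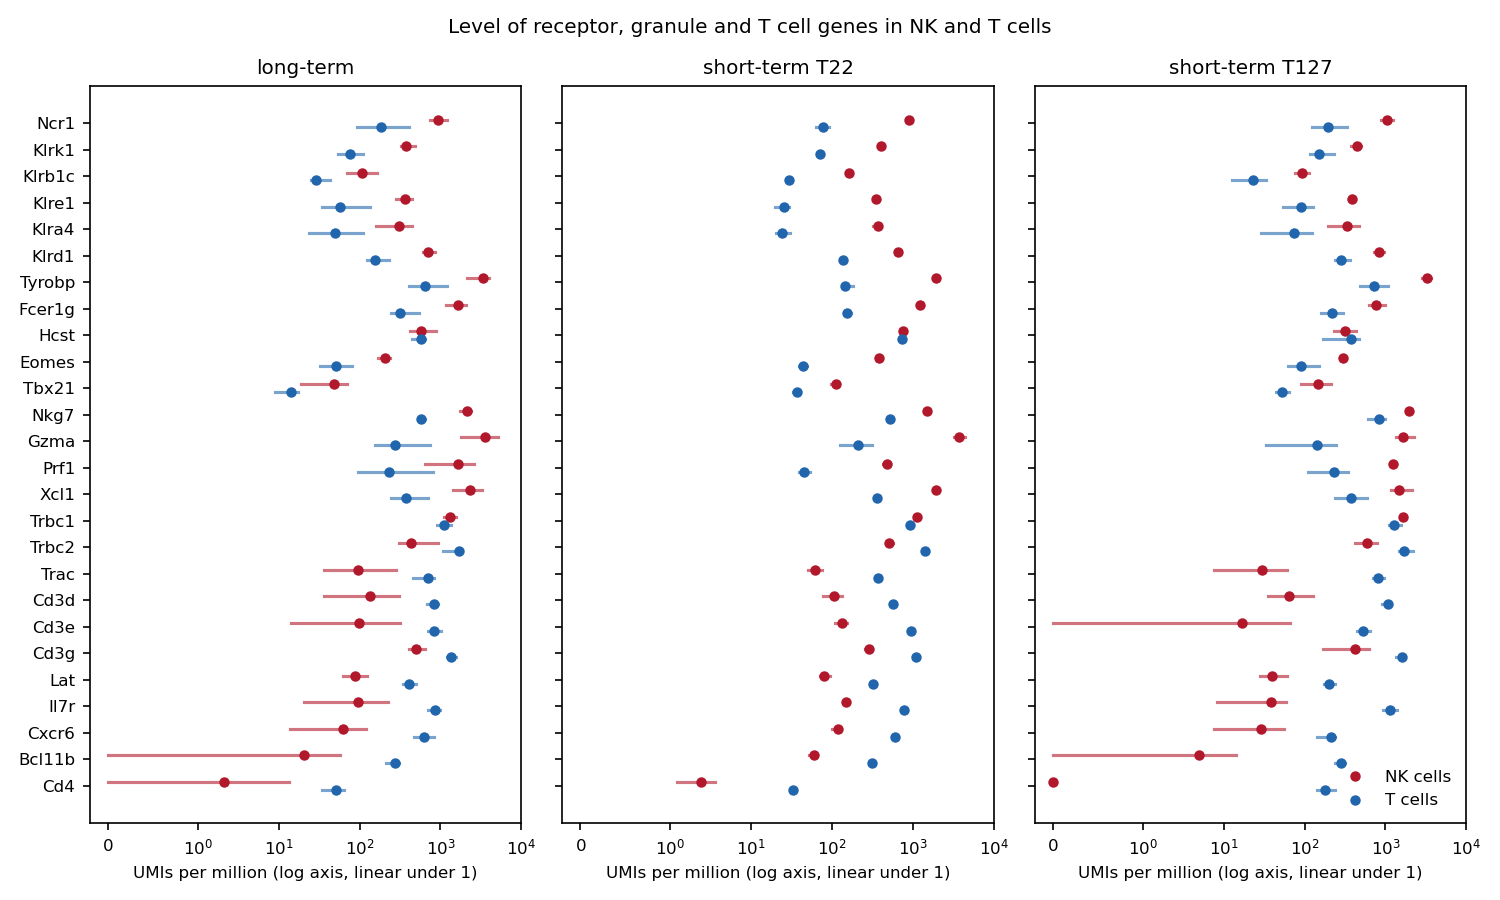
Level of 26 genes in NK cells (red) and T cells (blue), in CPM on an axis that is linear near 0 and logarithmic above, with a dot for each experiment and a line for its range over pools. Receptors such as Ncr1, Klre1 and Klra4 and the adaptor Tyrobp stand above the T cell range in all 3 experiments, Il7r, Bcl11b and Cd3e stand below it, and Trbc1 levels of both classes lie together.

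Many of the cytotoxic genes were higher in NK cells, and within NK cells the granzymes divided the experiments. Of the genes of granules and death ligands, 12 of the 20 that passed the filter were at least 2-fold higher in NK than in T cells in the long-term experiment, 9 of 17 in T22 and 10 of 19 in T127, and 1, Stx11 in T127, was at least 2-fold lower. Of all genes, 3.72%, 3.99% and 4.08% were higher to this extent and 9.36%, 4.6% and 9.29% lower. The median log2 ratios of the list were 1.59, 1.16 and 1.22. Gzmb was 4.56-fold (95% interval 4.36 to 4.75), 2.59-fold (95% interval 2.48 to 2.70) and 1.26-fold (95% interval 1.17 to 1.35) the T cell level. The long-term NK pools of Gzmb and Prf1 overlapped the long-term T cell pools. Gzma, a granzyme of resting and activated NK cells, was 3417, 3176, 4403 and 3845 CPM in the T22 pools, 2229.5, 1339, 1469 and 1623 in the T127 pools, and 1771 to 5184 (median 3845) in the long-term pools. Its T127 level was 0.446-fold (95% interval 0.424 to 0.469) the T22 level, with no overlap of the pools. Gzmb, the granzyme that cleaves caspases, went the other way, at 410, 366, 537 and 438 CPM in T22, 1295, 1402, 1104 and 2002 in T127, and 734 to 4455 (median 2876) in the long-term pools. The Gzmb ratio of T127 to T22 was 3.39-fold (95% interval 3.19 to 3.603). Prf1, perforin, was 470.4, 425, 526 and 478 CPM in T22, 1229.8, 1135, 1332 and 1294 in T127, and 641 to 2611 (median 1669.8) in the long-term pools. Its ratio was 2.65-fold (95% interval 2.48 to 2.82). For Gzmb and Prf1 every T127 pool and every long-term pool lay above every T22 pool, as held for 8.04% and 3.39% of all genes. T127 pools lay below all T22 pools, as those of Gzma did, for 13.3% of all genes. Without long-term pool 6 the long-term levels were 2814 for Gzmb and 1789 for Prf1. Between T22 and T127, 8 of the 19 cytotoxic genes that passed the filter were at least 2-fold higher in T127 and 1, Gzma, was lower, where 3.69% of all genes were at least 2-fold higher in T127 and 10.3% lower. Of these 8, Gzmd, Gzme and Gzmf were at or near 0 in T22 and passed the filter only through T127. They could therefore only count as higher there. Serpinb9, an inhibitor that protects cytotoxic cells from granzyme B, was 2.17-fold (95% interval 2.04 to 2.30) the T22 level in T127.

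Granzymes C to G, a cluster of neighbouring genes that encode proteases of strongly activated mouse killer cells, were near 0 in short-term T22 and abundant in the other experiments. Gzmc stood at 96.0, 13.9, 79.3 and 51.4 CPM in the T22 pools of NK cells and at 2844, 2678, 3604 and 5914 in the T127 pools. The T127 level of Gzmc was 64.8-fold (95% interval 59.3 to 71.0) the T22 level, and the lowest T127 pool exceeded the highest T22 pool. Without NK cells that had a Cd3 UMI, Gzmc was 19.1 CPM in T22 and 4139 in T127, a ratio of 217-fold. Gzmd had no UMI in 1193 T22 NK cells and was 229.99, 780.03, 53.3 and 1441 CPM in the T127 pools, at least 2042-fold higher against the level that 3 UMIs would give over the T22 cells. Gzme and Gzmf had 2 UMIs each in T22 NK cells. Gzme was 70.4, 317, 137 and 491 CPM in the T127 pools, a ratio of 1237-fold (95% interval 339 to 10270.5). Without T127 pool 4 the T127 level of Gzme was 177 CPM, and without T22 pool 3 the T22 level was 0.137 in place of 0.216 CPM. Gzmf was 0, 772, 769 and 1276 CPM, a ratio of 3481-fold (95% interval 960.2 to 28793), and its pools overlapped with T22 because T127 pool 1 had no Gzmf UMI. Both T22 UMIs of Gzmf were in 1 cell of pool 1, so that the T22 level was 0 without that pool and the ratio rests on it. Gzmg was at 0 in T22 and at 9.39, 12.5, 0 and 189 CPM in the T127 pools, at least 182-fold higher, and T127 pool 3 had none. Both bounds rest in part on T127 pool 4, without which the T127 level was 349 CPM of Gzmd and 6.99 of Gzmg and the bounds at least 1080-fold and 21.6-fold. In the long-term experiment, Gzmc was 463 to 17518 (median 10798) CPM over the pools and Gzmd 24.1 to 11038 (median 4282). Gzmf was 24.1 to 13684 (median 3193) CPM and Gzmg 0 to 7435 (median 1545). Against the same level of 3 UMIs over the T22 cells, the long-term values were at least 15430.4-fold for Gzmd and at least 9385-fold for Gzmg before any scaling. The lowest values were those of pool 6, whose summed Gzmc to Gzmg level was 525.6 CPM against 10147 to 54031 in the other 7 long-term pools. Without pool 6, the long-term level was 11536 CPM of Gzmc, 5608 of Gzmd, 2563 of Gzme, 5648 of Gzmf and 3413 of Gzmg. The 5 genes are similar in sequence, and how reads that match more than 1 of them were assigned is not known here.

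The granzymes C to G were also present in T cell clusters, at lower levels over each experiment, and were low in B, Macro-M2 and malignant cells. The summed level was 25644, 60.3 and 5616 CPM in long-term, T22 and T127 NK cells and 4155, 18.6 and 494 in T cells. The long-term T cell pools ranged from 1142 to 20488 CPM, and that of pool 2, the highest, exceeded the NK level of pools 6, 7 and 8. Within pools, NK cells stood above T cells in 7 of the 8 long-term pools and below them in pool 6 (525.6 against 2296 CPM). In T22, without the NK cells that had a Cd3 UMI, Gzmc was 19.1 CPM in NK cells, against 17.9 in T cells. Gzmc in long-term clusters was 3279 CPM in Tgd, 1516 in CD4_Tcm-TCF7 and 1371 in CD8_Tn-CCR7 cells, against 5.07 in B cells, 4.38 in Macro-M2 and 0.890 in Malign_0 cells. After thinning to 2000 UMIs, 32.9% (95% interval 27.4 to 38.7) of long-term, 2.60% (95% interval 1.78 to 3.67) of T22 and 42.9% (95% interval 34.5 to 51.5) of T127 NK cells had a Gzmc UMI. The share in B cells was 1.16%, 0% (0 of 33 cells, up to 9.09%) and 0% (0 of 25 cells, up to 12.0%), at median depths of 2082, 2862.5 and 2084.5 UMIs. In malignant cells it was 0.189%, 0% (0 of 1954 cells, up to 0.154%) and 0.0205%. The long-term and T127 shares in NK cells lay above both, whereas the T22 share lay above that of malignant cells and below what the few T22 B cells could show. By pool, the share of T127 NK cells with a Gzmc UMI was 45.2%, 43.3%, 36.4% and 48.6%, and in the long-term pools it ranged from 10.3% in pool 6 to 50.0% in pool 2.

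**Figure D3:**
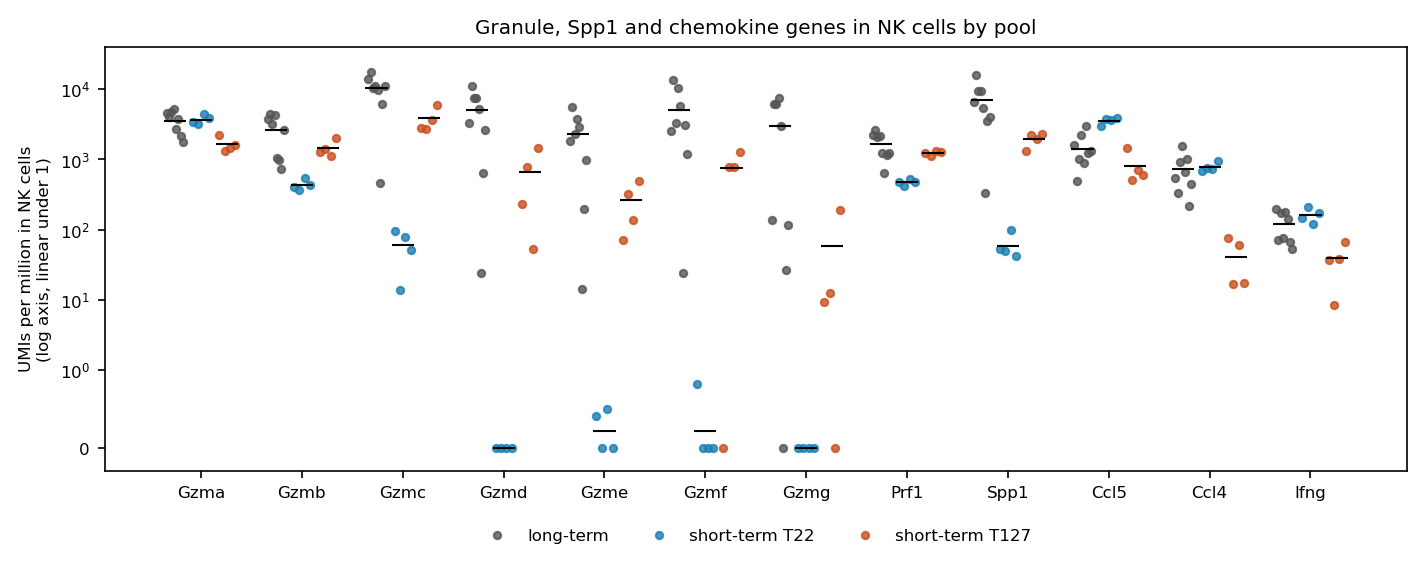
Level of granzymes, perforin, Spp1, chemokines and Ifng in NK cells, in CPM on an axis that is linear near 0 and logarithmic above, with a dot for each pool and a bar for each experiment. Every long-term and T127 pool of Gzmc, Gzmd and Spp1 stands above the 4 T22 pools, while the bars of Ccl4, Ccl5 and Ifng are lowest in T127.

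The granzymes C to G were concentrated in few cells. Any UMI of the 5 genes was found in 110 of 281 long-term NK cells (39.1%), 78 of 1193 T22 cells (6.54%) and 71 of 141 T127 cells (50.4%). The 29 long-term cells with the most such UMIs, of 281, held 87.1% of them, and the 15 such T127 cells, of 141, held 76.7%. A level above 10000 CPM was reached by 59 long-term cells (21.0%), 2 T22 cells and 16 T127 cells (11.3%), and the highest long-term cell gave 274019 CPM. Single cells carried a sizeable part of the least frequent genes, with 24.4% of the long-term Gzmg UMIs and 72.9% of the T127 Gzmg UMIs in 1 cell each.

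In the long-term and T127 experiments, cells with Gzmc differed from the other NK cells in further genes, and the split is a description since it was made on a measured gene after its values were seen. Thinned to 2000 UMIs, 92 long-term cells had a Gzmc UMI and 188 had none, with median depths before thinning of 8205 and 4401 UMIs, and 60 and 80 T127 cells did so at 8150 and 4940 UMIs. In the long-term experiment Gzmb was 4397 CPM in cells with Gzmc and 819 in cells without, a ratio of 5.37-fold (95% interval 4.70 to 6.14), and Prf1 2429 against 734, a ratio of 3.31-fold (95% interval 2.84 to 3.86). In T127 the ratios were 3.59-fold (95% interval 2.84 to 4.56) for Gzmb and 1.70-fold (95% interval 1.36 to 2.11) for Prf1. Ctla2a, which encodes a cysteine protease inhibitor of activated lymphocytes, was 2.82-fold (95% interval 2.55 to 3.13) higher in long-term and 1.73-fold (95% interval 1.55 to 1.94) higher in T127 cells with Gzmc. The chemokine Ccl5 went the other way, at 495 against 3136 CPM in the long-term and 50.0 against 2838 in the T127 experiment. So did Ccl4 (141 against 1375 and 8.33 against 125 CPM) and Ifng (70.7 against 191 and 8.33 against 87.5 CPM). The T127 values of 8.33 CPM rest on 1 UMI each, against 20 UMIs of Ccl4 and 14 of Ifng in cells without Gzmc. Of the identity genes, Ncr1 had ratios of 1.18-fold (95% interval 0.990 to 1.39) and 1.03-fold (95% interval 0.810 to 1.30) and Klre1 of 0.981-fold (95% interval 0.732 to 1.31) and 0.704-fold (95% interval 0.462 to 1.06), whose intervals held 1. Tyrobp was higher in cells with Gzmc, at 1.75-fold (95% interval 1.59 to 1.92) and 1.24-fold (95% interval 1.08 to 1.41). Gzma was lower, at 0.884-fold (95% interval 0.806 to 0.968) and 0.622-fold (95% interval 0.516 to 0.747), and Nkg7 was lower in long-term cells, at 0.744-fold (95% interval 0.658 to 0.839). Receptors moved in both directions in long-term cells. Klrb1c at 0.545-fold (95% interval 0.293 to 0.958) and Klra4 at 0.505-fold (95% interval 0.351 to 0.711) were lower in cells with Gzmc. Klra7 at 2.89-fold (95% interval 2.08 to 4.04), Lag3 at 4.64-fold (95% interval 2.20 to 10.5) and Havcr2 at 21.5-fold (95% interval 5.24 to 189) were higher, the last on 2 UMIs in cells without Gzmc, and Klrk1 was 0.934-fold (95% interval 0.714 to 1.21). The T127 intervals of these 6 receptors held 1. In T22, where 31 cells with Gzmc stood against 1160 without, Gzmb was higher (1.99-fold (95% interval 1.47 to 2.65)) and Ccl5 lower (0.616-fold (95% interval 0.531 to 0.712)). The T22 intervals of Prf1 (1.13-fold (95% interval 0.783 to 1.58)), Ctla2a (0.953-fold (95% interval 0.744 to 1.20)), Ccl4 (0.896-fold (95% interval 0.656 to 1.20)) and Ifng (1.56-fold (95% interval 0.915 to 2.49)) held 1. Klra7 went against its long-term direction in T22, at 0.141-fold (95% interval 0.0035 to 0.791) on 1 UMI in cells with Gzmc. Klra4 at 0.193-fold (95% interval 0.0625 to 0.452) and Lag3 at 6.24-fold (95% interval 1.18 to 21.4) kept theirs. Long-term cells without Gzmc included most of the T cell transcripts of the class, with Trac at 186 CPM against 21.7 and Cd3e at 191 against 5.43. The part of the cells with Cd3 alone in these differences was not tested.

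Spp1, which encodes the secreted phosphoprotein osteopontin, followed the same pattern over experiments and cells. It was 53.1, 49.9, 98.9 and 41.9 CPM in the T22 pools of NK cells, 1314, 2239.99, 1956 and 2268 in the T127 pools, and 328 to 16162 (median 5979) in the long-term pools. The Spp1 ratio of T127 to T22 was 33.5-fold (95% interval 30.4 to 36.8). Without long-term pool 6, the lowest, the long-term level was 7775 CPM. Spp1 was also abundant in T127 tumor cells, at 3626 and 5398 CPM in Malign_0 and Malign_1 of the T127 experiment, against 5.64 and 6.87 in Malign_2 and Malign_3 of T22. T127 B cells, which should lack it, held 1309 CPM, and 40.0% (95% interval 21.1 to 61.3) of them had an Spp1 UMI, against 52.9% (95% interval 44.2 to 61.3) of T127 NK cells, so that the T127 shares overlap in their intervals. Long-term B cells held 169.7 CPM and 19.8% (95% interval 14.1 to 26.5) of them a UMI, against 6952 CPM and 48.6% (95% interval 42.6 to 54.6) in NK cells. Within long-term NK cells, Spp1 was 11772 CPM in cells with Gzmc and 497 in those without, a ratio of 23.7-fold (95% interval 20.4 to 27.6), and 85.9% against 30.3% of cells had a UMI. The T127 ratio was 3.07-fold (95% interval 2.48 to 3.81), with 66.7% against 42.5% of cells. The part of free RNA from tumor cells in these values was not tested.

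**Figure D4:**
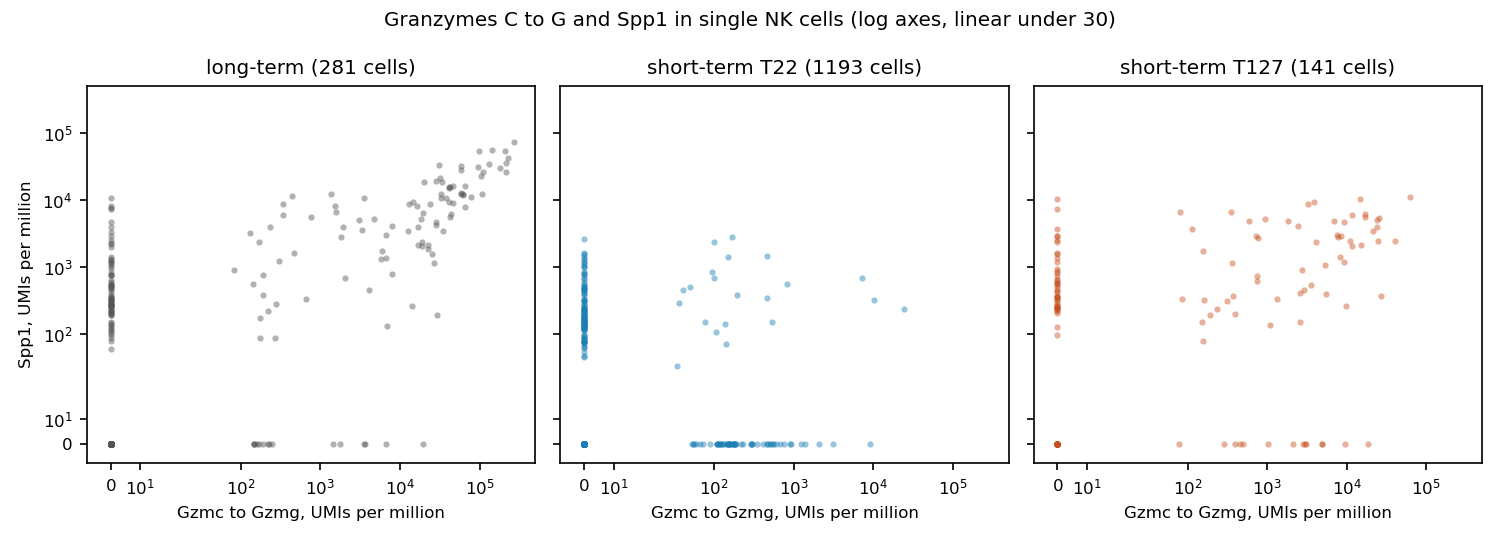
Summed level of Gzmc to Gzmg against the level of Spp1 in every NK cell, in CPM, in 3 panels for the experiments, on axes that are linear below 30 and logarithmic above. Cells high in both fill the upper right of the long-term and T127 panels, where 59 and 16 cells lie above 10000 CPM of the granzymes, and 2 of 1193 cells do so in T22.

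Secreted factors were mixed. Of 12 cytokines and chemokines, 5 were at least 2-fold higher and 4 lower in NK than in T cells in the long-term experiment, 5 higher and 3 lower in T22, and 1 higher and 6 lower in T127. Of all genes, 3.72% and 9.36%, 3.99% and 4.6%, and 4.08% and 9.29% were higher and lower in these experiments. The median log2 ratios were -0.41, -0.12 and -0.69. Xcl1, a chemokine that draws cross-presenting dendritic cells, was higher in NK cells throughout, at 2298, 1906 and 1487 CPM against 375, 356 and 378 in T cells. Ccl5, which attracts T cells and macrophages, stood at 3021, 3759.7, 3703 and 3866 CPM in the T22 pools of NK cells and 1474, 509, 708 and 609.96 in the T127 pools, a ratio of 0.222-fold (95% interval 0.207 to 0.238). Ccl4, an inflammatory chemokine, stood at 688, 766, 731 and 940.2 CPM in T22 and 75.1, 16.7, 60.9 and 17.5 in T127, a ratio of 0.0522-fold (95% interval 0.0374 to 0.0708). Ifng, interferon gamma, stood at 146, 211, 121 and 174 and 37.5, 8.34, 38.1 and 66.6 CPM, a ratio of 0.237-fold (95% interval 0.168 to 0.326). Every T127 pool lay below every T22 pool for the 3 genes, as held for 13.3% of all genes. Ccl5 UMIs were found in 75.5% (95% interval 72.9 to 77.9) of thinned T22 NK cells, 19.3% (95% interval 13.1 to 26.8) of T127 and 45.7% (95% interval 39.8 to 51.7) of long-term NK cells. B cells gave 6.06%, 0% (0 of 25 cells, up to 12.0%) and 3.49%. In T127, Ccl3 and Ccl4 were lower in NK cells than in all T cells together (15.99 against 79.6 and 41.0 against 165 CPM), but higher than in CD4_Tcm-TCF7 cells alone, where Ccl3 had no UMI and Ccl4 was 26.1 CPM. With 1 T127 pool left out at a time, the Ccl3 level of NK cells ranged from 10.2 to 21.0 CPM. Within T127 T cells, Ccl4 was carried by CD4_Treg-FOXP3 cells at 288 CPM and 18 CD8_Tn-CCR7 cells at 590.1 CPM, and without T127 pool 3 the Ccl3 level of T cells lay below that of NK cells.

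Some cytokine receptors and homing genes differed by at least 2-fold between NK and T cells, in both directions. Of all genes, 3.72%, 3.99% and 4.08% were higher to this extent and 9.36%, 4.6% and 9.29% lower in the long-term, T22 and T127 experiments. Of 15 cytokine receptors, 2, 3 and 2 were at least 2-fold higher and 2, 3 and 4 lower in NK cells in the long-term, T22 and T127 experiments, with median log2 ratios of 0.05, -0.00 and -0.12. Il2rb, the chain that NK cells use to read interleukin 15, was 2.36-fold (95% interval 2.16 to 2.59), 2.11-fold (95% interval 2.06 to 2.17) and 2.04-fold (95% interval 1.89 to 2.20) the T cell level. Among NK cells it was higher in T127 (1633, 1593, 1644 and 1774 CPM) than in T22 (982, 978, 992 and 1027). Il7r, the interleukin 7 receptor of naive T cells and helper innate lymphocytes, stood at 94.4, 149 and 39.0 CPM against 845, 782 and 1151 in T cells. Ifngr1 was 2.22-fold (95% interval 2.08 to 2.37) and Tgfbr2, a receptor of transforming growth factor beta, 1.91-fold (95% interval 1.66 to 2.20) the T22 level in T127 NK cells, without overlap of the pools. Of the homing and adhesion genes, 3 of 17 that passed the filter were higher and 5 lower in the long-term experiment, 5 and 4 of 20 in T22 and 1 and 5 of 17 in T127. The median log2 ratios were -0.09, 0.27 and -0.73. Itga2, the integrin CD49b of NK cells, was 4.61-fold, 8.61-fold and 1.60-fold the T cell level and Cxcr6, a receptor of tissue-resident lymphocytes, 0.102-fold, 0.198-fold and 0.138-fold. In NK cells with an Ncr1 UMI, Cxcr6 was 27.3 in place of 62.9 CPM in the long-term and 60.7 in place of 118 in the T22 experiment, and Il7r was 38.6 and 96.7 CPM. Itgae, the CD103 integrin of epithelial residence, was 0, 0, 7.61 and 3.51 CPM in T127 and 88.2, 83.3, 92.4 and 70.7 in T22. Every T127 pool of Itgae lay below every T22 pool. Of all genes, 13.3% lay below in this way and 8.04% lay above.

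Genes of immature NK cells were more often higher than lower in NK than in T cells, genes of residence more often lower, and genes of mature NK cells differed by experiment. Of 10 genes of immature NK cells, 4 were at least 2-fold higher and 1 lower in NK cells in each experiment, with median log2 ratios of 0.71, 0.60 and 0.53. Of the genes of mature NK cells 4 of 8 that passed the filter were higher in the long-term experiment, 7 of 10 in T22 and 2 of 8 in T127, with medians of 0.59, 2.31 and -0.76, and 1, 1 and 4 of them were at least 2-fold lower. Over all genes 3.72%, 3.99% and 4.08% were higher by this measure and 9.36%, 4.6% and 9.29% lower. Of the genes of type 1 innate lymphoid cells and residence, 7 of 13, 6 of 14 and 6 of 12 were at least 2-fold lower and 1, 3 and 2 at least 2-fold higher, with medians of -2.11, -0.63 and -0.59. Between the tumor models, 7 of 13 were at least 2-fold higher in T22 than in T127 NK cells and 1 was lower, where 10.3% and 3.69% of all genes were. Kit, a receptor of early NK cells, was 141, 179, 145 and 98.2 CPM in the T127 and 18.8, 30.8, 19.1 and 24.5 in the T22 pools, a ratio of 5.94-fold (95% interval 4.76 to 7.38). Of the 10 immature genes, 3 were at least 2-fold higher in T127 than in T22 NK cells and 1, Cd7, was lower, with a median log2 ratio of T22 to T127 of -0.11. Of the 10 mature genes, 4 were at least 2-fold higher in T22 and 2, Gzmb and Prf1, were higher in T127, with a median of 0.44. Over all genes, 3.69% were at least 2-fold higher in T127 than in T22 NK cells. Klrg1 and Itgam, both of mature NK cells, were 5.00 and 3.00 CPM in T127 against 30.2 and 23.4 in T22, again without overlap. T127 pools lay below all T22 pools for 13.3% of all genes. Itga1, the CD49a integrin of resident cells, had a ratio of T127 to T22 of 1.07-fold (95% interval 0.855 to 1.33), and its pools overlapped.

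Further genes that set T127 apart from T22 NK cells included Plac8, a gene of activated lymphocytes and myeloid cells, at 849.6, 1264, 1259.8 and 873 against 41.7, 46.0, 29.6 and 22.5 CPM. Ifitm2, an interferon-induced membrane protein, was 432, 726, 373 and 719 against 36.3, 19.1, 32.6 and 46.2 CPM. The ratios of T127 to T22 were 30.4-fold (95% interval 26.9 to 34.6) for Plac8, 16.7-fold (95% interval 14.6 to 19.3) for Ifitm2 and 4.19-fold (95% interval 4.05 to 4.33) for Ctla2a, each without overlap of the pools. T127 pools lay above all T22 pools for 8.04% of all genes. T cells differed in these genes too, with Plac8 at 648 against 61.5 CPM, Ifitm2 at 108 against 59.0 and Ctla2a at 1318 against 382 in T127 and T22 T cells. Genes with the highest ratio of T22 to T127 included some with like levels in T cells. Igfbp5 and Wfdc18 had no UMI in T127 NK cells and stood at 113 and 104 CPM in T22 NK cells, at least 37.8-fold and 34.6-fold higher against 3 UMIs over the T127 cells, and T22 T cells held 124 and 104 CPM. Ecrg4 and H2-Aa, a chain of MHC class II, had 1 UMI each in T127 NK cells and stood at 90.2 and 81.0 CPM in T22 NK cells, with 88.3 and 59.5 in T22 T cells. Pacsin1, a membrane-bending adaptor, was 107 CPM in T22 and 2.00 in T127 NK cells. Fn1, fibronectin, was 59.0 CPM in T127 and 3.45 in T22 NK cells, with 139.97 and 5.05 in T cells and 3947 in T127 Malign_0 cells. Ccl1, a chemokine, was at 0 in T127 NK cells, at 155, 49.4, 86.4 and 65.6 CPM in the T22 pools, at least 29.9-fold higher against the level of 3 UMIs over the T127 cells.

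**Figure D5:**
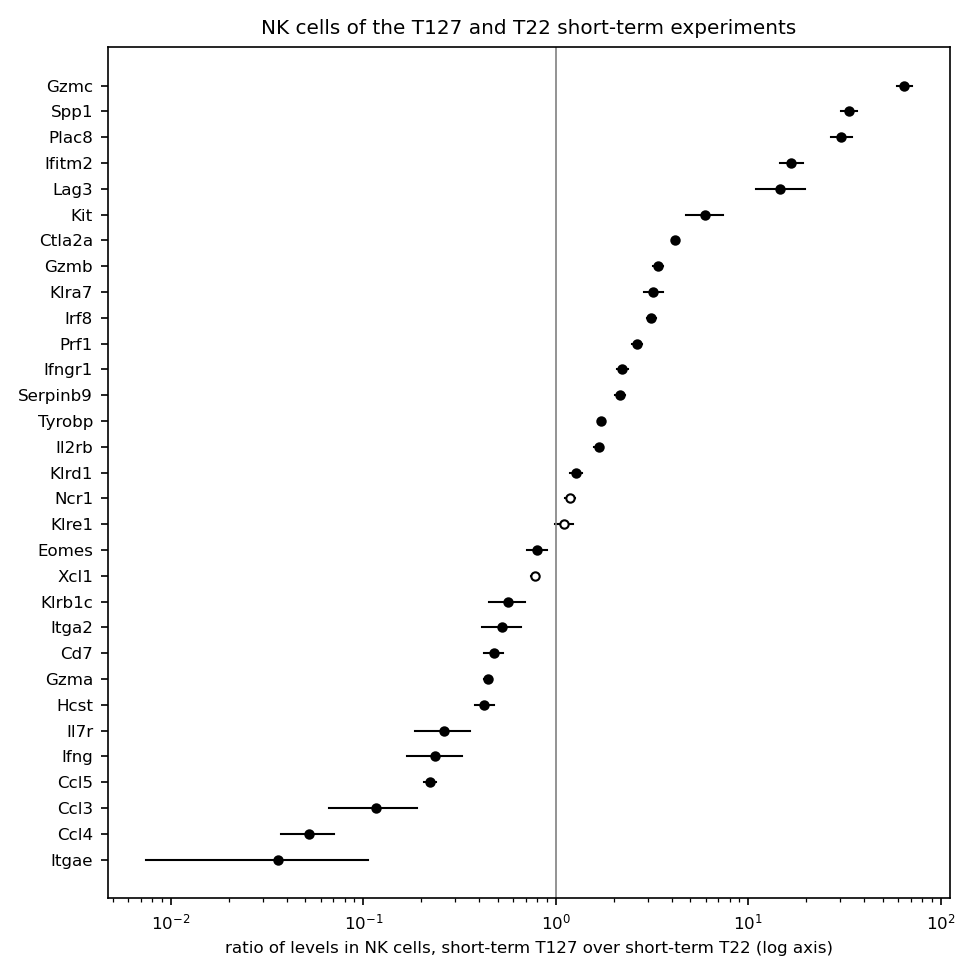
Ratio of the T127 to the T22 level in NK cells for 31 genes, on a logarithmic axis with exact 95% intervals, filled where the ranges over pools do not overlap and open where they do. Gzmc and Spp1 lie farthest to the right, at 64.8-fold and 33.5-fold, Itgae and Ccl4 farthest to the left, and Ncr1, Klre1 and Xcl1 are open points near 1.

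The long-term and short-term T22 experiments also differed in NK cells, and they share the T22 values above with the T127 comparison. The middle gene of the long-term NK cells stood at 0.750-fold its T22 level, so ratios are given relative to this. Relative to all genes, Gzmc was 229.9-fold (95% interval 211 to 251) the T22 level, or 976-fold without the NK cells that had a Cd3 UMI, and Spp1 157-fold (95% interval 144 to 171) the T22 level. Gzmb was 8.04-fold (95% interval 7.71 to 8.38), Prf1 4.69-fold (95% interval 4.47 to 4.91) and Tyrobp 2.36-fold (95% interval 2.30 to 2.43). Ncr1 was 1.42-fold (95% interval 1.35 to 1.498) and Gzma 1.29-fold (95% interval 1.26 to 1.32). Cxcr4, a receptor that retains cells in bone marrow and tissue, was 276, 312, 257 and 302 CPM in the T22 and 4.43 to 60.04 (median 31.1) in the long-term pools, or 0.156-fold (95% interval 0.119 to 0.200). Nr4a3, an early gene of receptor signaling, was 455, 412, 426 and 523 and 35.9 to 72.3 (median 50.5) CPM, or 0.150-fold (95% interval 0.121 to 0.183), and Fosb, another early gene, was 0.214-fold (95% interval 0.162 to 0.279). Of the 10 immediate early genes listed, 3 were at least 2-fold lower before scaling, Fosb, Egr1 and Nr4a1, and the median log2 ratio of -0.38 was close to that of all genes. Jun was 1.52-fold (95% interval 1.34 to 1.71) and Fos 1.06-fold (95% interval 0.956 to 1.18). Il18r1, the interleukin 18 receptor, was 0.295-fold (95% interval 0.226 to 0.379) and Itga2 0.369-fold (95% interval 0.289 to 0.4663). None of the 20 homing genes and 15 cytokine receptors was at least 2-fold higher in the long-term NK cells before this scaling, and 10 and 7 were lower. Of all genes, 2.5% were higher and 22.2% lower. Both lists had a median log2 ratio of -0.97, against -0.39 over all genes. Among 13 interferon-stimulated genes 3 were at least 2-fold higher before scaling, Usp18, Xaf1 and Irf7, at 5.63-fold, 3.92-fold and 2.82-fold relative to all genes. On the latter scale Isg15 at 2.61-fold and Bst2 at 2.02-fold also passed 2-fold. Hemoglobin transcripts, which belong to red blood cells, stood high in long-term libraries, with Hbb-bs at 2247 CPM in long-term and 0.108 in T22 NK cells, and at 3996 and 0.284 in T cells.

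Cycling, interferon and early response genes were seldom 2-fold apart between NK and all T cells, but the T22 cell cycle genes depended on the T cells taken. Of 15 cell cycle genes none was at least 2-fold apart from all T cells in the long-term and T22 experiments, and 2 were higher in T127, with median log2 ratios of 0.17, -0.09 and 0.44. Of all genes, 3.72%, 3.99% and 4.08% were at least 2-fold higher than in all T cells. The T cells held a cluster named for proliferation, Tprf-MKI67, with 21, 418 and 1 cells in the long-term, T22 and T127 experiments. Without it 0, 7 and 2 of the 15 genes were at least 2-fold higher in NK cells, with medians of 0.28, 0.96 and 0.43. Against the same T cells, 3.76%, 5.07% and 4.07% of all genes were at least 2-fold higher. Mki67, a marker of dividing cells, was 394, 434, 474 and 344 CPM in the T22 pools of NK cells, 150.2, 142, 225 and 129.7 in the T127 pools, and 35.5 to 416 (median 109) in the long-term pools. Its T22 log2 ratio to T cells was -0.01 against all T cells and 1.37 without Tprf-MKI67. Of 13 interferon-stimulated genes 0, 1 and 2 were at least 2-fold lower in NK cells, with medians of -0.20, -0.11 and -0.66, and of 10 immediate early genes 0, 0 and 1, with medians of -0.38, 0.14 and -0.43. Of all genes 9.36%, 4.6% and 9.29% were 2-fold lower. No gene of either list was at least 2-fold higher. By pools, 5 of the 10 immediate early genes lay above T cells in T22 without overlap, as did 17% of all genes. In T127, 4 of these 10 and 4 of the 13 interferon-stimulated genes lay below T cells without overlap, as did 10.2% of all genes.

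Ligands of NK receptors were read in the tumor cells of the same libraries. H2-K1, a classical MHC class I heavy chain read by Ly49 receptors, was 247 and 215 CPM in the T127 clusters Malign_0 and Malign_1 of the long-term experiment, and 2609.8 and 1382 in the T22 clusters Malign_2 and Malign_3. The short-term experiments gave 204 and 207 in T127 and 2056 and 927 in T22. H2-T23, which presents peptides to CD94 and NKG2A, was 62.4, 55.0, 117 and 74.0 CPM in the same 4 clusters of the long-term experiment. Of the NKG2D ligands, Ulbp1 was 29.4 and 18.2 CPM in T127 and 16.8 and 34.1 in T22 clusters of the short-term experiments, and Raet1d, Raet1e and H60b were at most 1.68 CPM in any malignant cluster. Il15, the growth factor of NK cells, was 10.4 and 9.98 CPM in T127 and 8.05 and 9.54 in T22 clusters. In NK cells themselves, 2 of 15, 1 of 17 and 2 of 13 of the listed ligands were at least 2-fold above T cells and 1, 1 and 4 at least 2-fold below, with medians of 0.09, 0.06 and -0.36. The shares of all genes were 3.72%, 3.99% and 4.08% above and 9.36%, 4.6% and 9.29% below.

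Markers of other cell types were low in NK cells. The 9 macrophage markers summed to 331, 230 and 52.0 CPM in long-term, T22 and T127 NK cells, against 32289, 24642 and 27978 in Macro-M2 cells, with Adgre1 and Apoe at 0 in T127 NK cells. The 5 B cell markers summed to 89.6, 108 and 61.0 CPM, against 7195, 4049 and 6105 in B cells, and Ms4a1 was at 0 in all 3. The 5 malignant and epithelial markers summed to 86.9, 46.4 and 59.95 CPM, against 12755 and 9110 in Malign_3 cells of the long-term and T22 experiments. Summed over 5 genes each, fibroblast markers were 111, 102 and 38.0 CPM, endothelial markers 53.3, 81.6 and 83.9, and plasmacytoid dendritic cell markers 263, 188 and 316, against at least 33974, 6150 and 8982 in those classes. Neutrophil markers summed to 50.1, 3.02 and 21.0 CPM, with Cxcr2 at 0, and 7 markers of type 2 innate lymphocytes, mast cells and basophils to 77.9, 96.9 and 150, with Fcer1a at 0. These 7 include Kit, which is also counted above among the genes of immature NK cells. T cells held macrophage markers at 442, 167 and 121 CPM, the same order as in NK cells, and the part of these markers in the differences between experiments was not tested. The genes with the highest ratio of NK to T cells in the long-term experiment were immunoglobulin genes whose UMIs came almost wholly from 1 cell. Jchain, Iglv1, Igkv12-98 and Ighg1, genes of antibody-secreting cells, had 99.2%, 100%, 100% and 99.5% of their long-term NK UMIs in 1 cell, and Slpi, a secreted protease inhibitor, had 93.1%. Of the other genes with the highest ratios, Styk1, a kinase-like gene of NK cells, was 95.5 against 13.7 CPM (6.97-fold). Genes with the lowest ratios included genes of T helper and innate helper cells, such as Cd4 (2.13 against 51.2 CPM), Areg, an epidermal growth factor ligand (8.53 against 288). They also included Tnfrsf4, which encodes OX40 (5.87 against 302), and S1pr1, a receptor for tissue exit (4.80 against 125). Cysltr1, Ramp3, Ifngr2, Blk, Rgcc and Cd40lg were the other genes at this end, each under 10 CPM in long-term NK cells. Il22 and Cd163l1 had no UMI in long-term NK cells and stood at 108 and 72.2 CPM in T cells.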

How the data were processed

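Single-cell 3′ RNA libraries of dissociated tumors were measured in 16 pools. The values are UMI counts per gene and cell, deposited by the authors, raw and not normalized, over 32285 genes. The submitters' processing notes name Cell Ranger 6.0.0 and GRCm38. The authors assigned the cluster names, and by the study's methods cells were filtered and doublets removed, so doublets were not called again. This was not checked. The deposited cells have at least 402, 484 and 428 genes in the long-term, T22 and T127 experiments, and 6064, 2389 and 182 of them have fewer than 1000. In the deposited tables the cells carry no link to a tumor or a treatment.

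NK cells, their comparators and the gene lists were chosen with earlier results of these data known. Shallower copies of a shared 16-base barcode were left out in the long-term pools. In the short-term data, 4 T22 NK cells and 0 T127 NK cells had a barcode found in another pool of their experiment, and these were kept. Counts were summed per class and experiment and divided by the summed total (CPM). Each experiment is 1 sample, so no test was run. Levels have exact Poisson, shares Clopper-Pearson and ratios exact conditional binomial intervals at 95%, for counting error only, and the range over pools stands beside them. Genes with at least 20 UMIs in both classes together were compared on log2 of CPM plus 1, and a call is a ratio of at least 2. A class at 0 was set to a floor of 3 UMIs, and a share of 0 cells is printed with the share that 3 cells would give. Shares of cells with a UMI come from cells thinned to 2000 UMIs, which left out 1, 2 and 1 NK cells, 324, 99 and 57 T cells and 137, 5 and 17 B cells in the long-term, T22 and T127 experiments.

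Genes are named from 25 fixed lists, the 12 highest and 12 lowest of NK over T cells in the long-term experiment, and the 8 highest and 8 lowest between experiments among genes of at least 50 CPM, in the last case with pools that do not overlap. One gene of the last rule and a few listed genes are not reported here. Splits by Gzmc, and Gzmg with a few further genes, were added after their values were seen. Alternatives were other denominators, a pseudocount of 10, no filter, median-of-ratios size factors, the mean of pools, cells with at least 1000 genes, no cells among the top 5% by UMIs (in place of a doublet call), NK cells without Cd3 UMIs, 1000 UMIs, and each pool left out. Pool 6 left out of all long-term values, Ncr1-positive cells alone, CD4_Tcm-TCF7 as the T cells, ratios within pools, and the Gzmc ratios without Cd3 cells and the cell cycle counts without Tprf-MKI67 cells were chosen after seeing the data. The calculations were tested on simulated data. Counts were summed with pandas 2.3.3 under Python 3.11.15 and intervals taken from scipy 1.17.1, with numpy 2.4.6 for the thinning and matplotlib 3.10.9 for the figures.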

Additional observations from a re-analysis of the deposited data

Results flagged for a closer look

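In 123 series of pool values, the highest or lowest pool stood far from the others in 11, against about 1 in 20 that chance gives. Long-term pool 6 accounts for 4 of them. Its NK cells held Tyrobp at 2103 CPM where the next lowest pool held 3159, and they held Trbc2 at 945 CPM (next highest 447), Trac at 285 (153) and Cd3e at 313 (126.8). In the same pool, 53.8% of thinned NK cells had an Ncr1 UMI and 10.3% a Gzmc UMI.

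Long-term pool 7 held Itga2 at 73.4 CPM, where the next highest pool held 45.4. In T22 pool 1, Klre1 was 329.96 CPM (next lowest 359), Eomes was 352 CPM (next lowest 382), and Gzmf was 0.817 CPM with the other T22 pools at 0. In T127, Gzmg was 189 CPM in pool 4 (next highest 12.5), Ctla2a was 4034 CPM in pool 3 (next lowest 4961), and Cd3e was 65.7 CPM in pool 1 (next highest 7.01). The cause was not tested for any of them.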

How the results depend on the processing

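The share of NK cells depended on the denominator: among immune cells it was 1.58% (long-term), 9.44% (T22) and 4.85% (T127), among NK and T cells 15.3%, 25.4% and 26.6%, and T22 gave 9.38% in cells with at least 1000 genes. Counts of genes at least 2-fold higher and lower depended on the pseudocount and the filter. NK over T cells gave 377 and 949 in the long-term, 511 and 589 in the T22 and 333 and 758 in the T127 experiment, and with a pseudocount of 10 CPM 172 and 256, 176 and 193, and 179 and 411. T22 over T127 gave 1086 and 389, or 218 and 142, and long-term over T22 266 and 2368, or 111 and 677. With no filter on low counts, 1441 genes were lower in long-term NK than T cells, 788 higher and 2156 lower in T127, 708 lower in T22 than T127 and 489 higher in long-term than T22. Median-of-ratios size factors turned long-term over T22 to 827 higher and 1057 lower, and CD4_Tcm-TCF7 cells as the T cells left 427 lower in T127. Leaving out any 1 pool moved none of these counts by over 1.5 times. Shares of cells with a UMI rose with depth by construction. At full depth and at 1000 UMIs, Ncr1 gave 85.4% and 49.5% (long-term), 84.2% and 50.7% (T22), 96.5% and 63.1% (T127), Spp1 59.8% and 40.9% (long-term), 10.6% and 3.35% (T22) and 70.9% (T127, full depth), Ccl5 52.7% and 39.5% (long-term) and 84.1% and 66.9% (T22), and Gzmc 6.29% (T22, full depth). Of the log2 ratios of single genes under alternatives, 3139 stayed on their side of 2-fold, 24 passed it newly, 18 fell short of it and 5 reversed, all in NK over T cells: in T127 Ccl3 (4.09) and Ccl4 (0.63) with CD4_Tcm-TCF7 as the T cells and Ccl3 (0.20) without pool 3, and in T22 Mki67 without Tprf-MKI67 cells (1.37) and with CD4_Tcm-TCF7 as the T cells (1.55). A ratio was counted as reversed if its sign changed and it was at least 2-fold apart in the main or the alternative setting. Sign changes within 2-fold were not counted as reversed. Leaving out each T127 pool, Ccl3 ranged from -3.17 to 0.20. Without NK cells that had a Cd3 UMI, the T22 log2 ratio of Gzmc over T cells fell to 0.08. With NK and T cells of 1 pool taken as a pair (replicate block), the mean log2 ratio within pools gave 302 genes higher and 1588 lower in the long-term, 485 and 614 in the T22 and 366 and 990 in the T127 experiment, and every gene with a log2 ratio examined kept its side of 2-fold. The cause of the larger long-term count was not tested. Pools of different experiments share only a number and were not paired.

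Counting error is widest in T127 (141 NK cells) and for genes under 20 UMIs. The short-term experiments differ in tumor model and capture together and have the same treatment times, the long-term experiment holds both tumors, and each has 1 value. Differences between the experiments therefore have no replicate check. Pools mix the tumors of an experiment and are not replicates of a condition.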
